A study of Mus musculus with 12 samples.

Results

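The comparison described here sets a 4T1 mouse mammary carcinoma line that carries full-length Mkl1 (FL) against a line that carries Mkl1 with a mutated B1 region (mutB1). It takes 6 of the 12 arrays of the study, 3 from each line, and the 30212 of 34760 probe sets whose mean log2 level over the 12 arrays was at least 4. The other 6 arrays, 3 of a control line and 3 of a line named ΔSAP for an Mkl1 construct, were used to show where those lines lay at each gene that changed. All 4 lines are stable mammary epithelial carcinoma lines of BALB/cfC3H background, were kept for 48 h in DMEM with 0.03% FCS (fetal calf serum), and differ by construct. There is 1 line for each construct, and the labels do not say how it was derived, so the p-values below measure only the spread between cultures of that line, which may be technical.

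Mkl1, now named Mrtfa, is a coactivator that is held in the cytoplasm by monomeric actin and moves to the nucleus when actin polymerises. There it binds serum response factor (Srf) through its B1 region, and Srf binds a DNA element called the CArG box. The SAP domain, thought to contact DNA, is another region of the same protein, and the design of the series compares FL with a line for each region. Genes with a CArG box near their start include many that build the actin cytoskeleton, together with immediate early genes. CArG boxes near the starts of 4 changed genes, those whose levels are described below, are printed here because B1 is known as the Srf-binding region. Each line gives 60 bases around the motif, 5′ to 3′ on the gene's strand, from the RefSeq annotation of GRCm38.p6, with the CArG box in capitals.
Dusp5 (chr19:53529038-53529097, plus strand): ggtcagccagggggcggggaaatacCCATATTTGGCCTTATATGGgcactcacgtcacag
Tmc4 (chr7:3677598-3677657, minus strand): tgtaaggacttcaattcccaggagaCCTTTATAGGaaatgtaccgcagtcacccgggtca
Egr2 (chr10:67537772-67537831, plus strand): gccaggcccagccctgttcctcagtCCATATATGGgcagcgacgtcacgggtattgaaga
Lmcd1 (chr6:112273518-112273577, plus strand): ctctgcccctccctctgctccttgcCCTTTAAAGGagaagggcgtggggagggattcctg

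The motif was searched on both strands of windows from 250 bases before to 50 bases after each annotated gene start. Of the 14355 tested genes with such a window, 234 held at least 1 CArG box, which is 1.63%. Among the genes that were higher in FL the count was 3 of 175 (1.71%), namely Dusp5, Tmc4 and the tyrosine kinase Tnk1. Among those that were lower in FL it was 4 of 133 (3.01%), namely Egr2, Lmcd1, Ston1 and Tiam1. The boxes of Tnk1, Ston1 and Tiam1 and another box at a different annotated start of Egr2 are not printed. A match is a stretch of letters and not a measured site. Dusp5, a nuclear phosphatase that acts on Erk, holds 2 adjoining boxes in the printed window and read 9.32, 9.40 and 9.18 on the FL arrays against 8.02, 8.08 and 8.23 on the mutB1 arrays. It rose by 1.19 ± 0.07 on the log2 scale (SE, n = 3 arrays per line, limma adjusted p = 7.14e-07). Egr2, an immediate early zinc finger factor, went the other way, with FL arrays at 8.45, 8.41 and 8.55 and mutB1 arrays at 9.77, 9.72 and 9.73, and it fell by 1.27 ± 0.06 (limma adjusted p = 1.22e-07). Genes with the box thus lay on both sides of the comparison, and the groups overlapped at neither gene.

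All values are robust multi-array average (RMA) levels on the log2 scale from Affymetrix Mouse Gene 1.0 ST arrays, so a difference of 1 is a 2-fold difference. Array medians ran from 6.35 to 6.46, no array was identical to another, and a line mean under 6.35 is called low, a limit chosen after the values were seen. The construct showed in the Mrtfa probe set, at 12.06, 12.14 and 12.03 in FL, 11.41, 11.23 and 11.22 in mutB1, and 9.26 to 9.28 in control. The mutB1 line therefore held less Mkl1 RNA than FL, by 0.79 ± 0.06 (limma adjusted p = 2.79e-06), and the mutation and this lower level cannot be told apart here. Keratins Krt8 and Krt18 were bright in all 4 lines, with line means of at least 12.55. Of 11 epithelial markers 6 were higher and 1 lower in FL at an adjusted p of 0.01 (limma), and 3 (Cldn7, Muc1 and Elf5) were low in all lines; their mean level ran from 9.28 to 9.31 on the FL arrays and from 8.21 to 8.24 on the mutB1 arrays. Markers of other cell types were mostly low in all lines, at 8 of 8 endothelial, 5 of 6 adipocyte, 7 of 9 leukocyte and 4 of 10 fibroblast genes. The fibroblast list ran from 6.07 to 6.12 in FL and from 6.57 to 6.62 in mutB1, the leukocyte list from 5.47 to 5.50 and from 5.38 to 5.46, and among them Pdgfra, Pdgfrb and Cd68 passed the adjusted p. The part of other cells in the results was not tested.

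A probe set is called changed where the limma adjusted p was at most 0.01, the difference at least 2-fold and the mean log2 level at least 4, as in the series design. FL exceeded mutB1 at 338 probe sets, which is 1.12% of those tested, and lay below it at 218, or 0.722%. With the brightest probe set standing for each named gene, 253 of 18259 genes rose in FL (1.39%) and 178 fell (0.975%), and 422 of these 431 genes are protein coding. At least 4-fold changes were found for 55 genes that rose and 18 that fell. At 127 of the 338 higher probe sets the mutB1 mean was low, and at 46 of the 218 lower ones the FL mean was low, so those changes can be understated. With the adjusted p alone, 2410 genes were higher (13.2%) and 2544 lower (13.9%), and these shares are the background for the gene families below. They depend on level: 19 were higher and 56 lower of 2833 genes with means from 4 to 5. Among 2547 genes with means from 9 to 10, 514 were higher and 632 lower. A family's share beside this background therefore also reflects how bright its members are. Only 5 probe sets past the p and fold limits had means between 3.21 and 3.97, just under the minimum of 4, and none of them has a gene symbol.

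Many of the largest falls in FL, though not that of Lbp described below, were at genes far higher in mutB1 than in any of the other 3 lines. Serglycin (Srgn), the core proteoglycan of secretory granules, read 12.23, 12.08 and 12.11 on the mutB1 arrays against 7.97, 8.15 and 8.38 on the FL arrays, and fell by 3.98 ± 0.09 (limma adjusted p = 1.5e-09). Control stood at 7.24 and ΔSAP at 6.68, both below FL. The platelet-derived growth factor receptor Pdgfrb read 10.22, 10.33 and 10.31 in mutB1 and 6.32 to 6.34 in FL, and fell by 3.96 ± 0.10, with control at 6.85 and ΔSAP at 5.92. Kank4, an adaptor of the cell cortex, fell by 3.48 ± 0.07, from 8.94, 9.12 and 9.02 in mutB1 to a low 5.54 in FL, beside low means of 5.51 in control and 5.23 in ΔSAP. None of the arrays of the other 3 lines reached the mutB1 range at these genes. The heparan sulfate proteoglycan glypican 4 (Gpc4, -3.29), laminin alpha 4 (Lama4, -3.02) and the hyaluronan-linked serum protein Itih2 (-2.82) were likewise highest in mutB1, with means of 9.58, 7.95 and 8.24 in mutB1 and of 5.55, 5.03 and 5.53 in control.

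Smaller falls of this kind were found for signalling genes. Boc, a co-receptor for Hedgehog ligands, stood at 9.07 in mutB1 and no higher than 7.33 in the other lines, and fell by 1.74 ± 0.09 (limma adjusted p = 2.57e-07). Angiopoietin 1 (Angpt1), a ligand of the Tie2 receptor, stood at 9.70 in mutB1 and between 7.48 and 8.03 in the other lines, and fell by 1.73 ± 0.09. The orphan nuclear receptor Nr5a2 fell by 1.64 ± 0.08, from 8.62 in mutB1 to 6.98 in FL, and control (6.39) and ΔSAP (6.41) lay further down. In all, 55 of the 178 genes that fell had both control and ΔSAP nearer to FL than to mutB1.

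The matching rises were at genes lowest in mutB1, with control and ΔSAP nearer FL. The ribosomal S6 kinase Rps6ka6 read 5.89, 5.88 and 6.03 in mutB1 and 8.46, 8.61 and 8.77 in FL, a rise of 2.68 ± 0.10 (limma adjusted p = 3.44e-08). Control (8.57) and ΔSAP (8.65) stood within 0.04 of FL. Mapkapk3, a kinase activated by p38, read 7.77, 7.74 and 7.65 in mutB1 against 10.37, 10.36 and 10.40 in FL, a rise of 2.66 ± 0.04, with control at 9.72 and ΔSAP at 9.68. Samd12 (2.67 ± 0.06) and Mpzl2, an immunoglobulin adhesion protein of epithelia (2.68 ± 0.10), also belonged here. At several genes the other lines lay beyond FL: the adhesion protein Alcam stood at 8.08 in mutB1 and 9.28 in FL but at 10.15 in control and 10.31 in ΔSAP, and Bcam, a receptor for laminin, at 7.43, 8.52, 9.17 and 8.88. The vesicular polyamine carrier Slc18b1 (1.87 ± 0.06), the Sox factor Sox15 (1.57 ± 0.06) and the membrane scaffold ankyrin Ank3 (1.23 ± 0.05) followed this order too. This class held 110 of the 253 genes that rose.

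A second class held genes at which ΔSAP lay nearer FL and control nearer mutB1. The non-coding RNA Lncenc1 read 10.18, 10.23 and 10.12 in FL and 9.80 to 9.82 in ΔSAP, against 6.33, 6.27 and 6.31 in mutB1 and 6.56 to 6.70 in control. It had the largest rise of all named genes, 3.87 ± 0.05 (limma adjusted p = 6.43e-11). Mal2, a transcytosis protein of polarised epithelia, stood at 8.87 in FL and 10.04 in ΔSAP and at low means of 5.78 in mutB1 and 5.63 in control. The repressor Klf12 had the same pattern, 7.42 and 7.83 against low means of 5.35 and 5.26, and rose by 2.07 ± 0.09 (limma adjusted p = 7e-08). The cyclin Ccnd2 lay in this class by a narrow margin, since its ΔSAP mean of 9.07 was 0.52 of the way from mutB1 (7.31) to FL (10.7). This class held 96 of the genes that rose. Its members need not have equal levels in control and mutB1: Fermt1 stood at 5.53 in control and 7.09 in mutB1.

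Of the genes that fell, 72 had ΔSAP nearer FL and control nearer mutB1. Lipopolysaccharide binding protein (Lbp), an acute-phase protein, read 6.76, 6.50 and 6.97 in FL and 6.27 to 6.65 in ΔSAP, against 9.76, 9.81 and 9.96 in mutB1 and 10.57 to 10.65 in control, and it fell by 3.10 ± 0.12 (limma adjusted p = 5.17e-08). Tensin 1 (Tns1), which links integrin adhesions to actin, stood at 8.23 and 8.32 in FL and ΔSAP and at 10.69 and 10.46 in mutB1 and control, and it fell by 2.46 ± 0.07. The actin-binding protein Synpo2 fell by 2.66 ± 0.12 and the methyltransferase Inmt by 2.36 ± 0.11, to low means in FL and ΔSAP. The matrix metalloprotease Adamts9 fell by 2.25 ± 0.09, from 11.04 to 8.79, with ΔSAP at 8.83 and control at 10.77. Gstm1, a glutathione transferase, fell by 1.30 ± 0.05 and was lower still in ΔSAP, at 8.95 against 9.35 in FL.

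In another class FL stood apart from the other 3 lines or ΔSAP lay part of the way. Serpinb9b read 10.34, 10.32 and 10.01 in FL against 7.23, 7.05 and 6.98 in mutB1, and Serpinb6b, its neighbour in the same cluster of protease inhibitor genes, had means of 10.11 and 7.14. ΔSAP lay at 8.52 and 8.54, 0.46 and 0.47 of the way up, and cross-hybridisation between these related genes was not tested. Cd74, the invariant chain of class II antigen presentation, rose by 2.69 ± 0.08 (limma adjusted p = 7.62e-09), with control at 6.88 and ΔSAP at 7.11 between the low mutB1 mean of 5.97 and the FL mean of 8.66. Icam1, an adhesion ligand for leukocyte integrins, read 8.94, 8.91 and 8.86 in FL and 7.54 to 7.59 in mutB1, and control (7.69) and ΔSAP (7.33) lay near mutB1. Of the genes that rose, 41 had both other lines nearer mutB1.

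The corresponding falls also numbered 41. Angiotensin-converting enzyme (Ace) read 9.28, 9.32 and 9.52 in FL, against 11.40 to 11.47 in mutB1, 11.45 to 11.51 in control and a mean of 11.02 in ΔSAP, and fell by 2.05 ± 0.06 (limma adjusted p = 4.41e-09). The heparan sulfatase Sulf2 fell by 2.29 ± 0.04, with means of 10.9 in mutB1, 10.1 in control, 10.4 in ΔSAP and 8.63 in FL. The Wnt antagonist Sfrp1 fell by 1.30 ± 0.04, and its means in mutB1, control and ΔSAP lay between 10.70 and 10.83 against 9.53 in FL. Carboxypeptidase M (Cpm) was lowest in FL, at 4.67, 4.69 and 4.77, and highest in ΔSAP (7.72) and control (7.57), with mutB1 at 6.53. The alarmin Il33 had the same mean of 8.22 in control and mutB1, a mean of 6.87 in ΔSAP and a low 5.50 in FL.

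The remaining class was the smallest, with 6 genes that rose and 10 that fell where control lay nearer FL and ΔSAP nearer mutB1. Osr1, a zinc finger transcription factor, read 8.79, 8.88 and 8.99 in FL and 6.74, 6.57 and 6.67 in mutB1, a rise of 2.22 ± 0.07 (limma adjusted p = 5.79e-09). Control stood above both at 9.84 to 9.90, and ΔSAP at 6.99 to 7.17. The prostatic acid phosphatase gene Acpp fell by 1.62 ± 0.09, to a low 6.26 in FL from 7.87 in mutB1, with control also low at 6.31 and ΔSAP above both at 8.51. The forkhead factor Foxq1 (-1.72 ± 0.06) and Rgl1, an exchange factor for Ral (-1.49 ± 0.06), were in the same class.

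**Figure D1:**
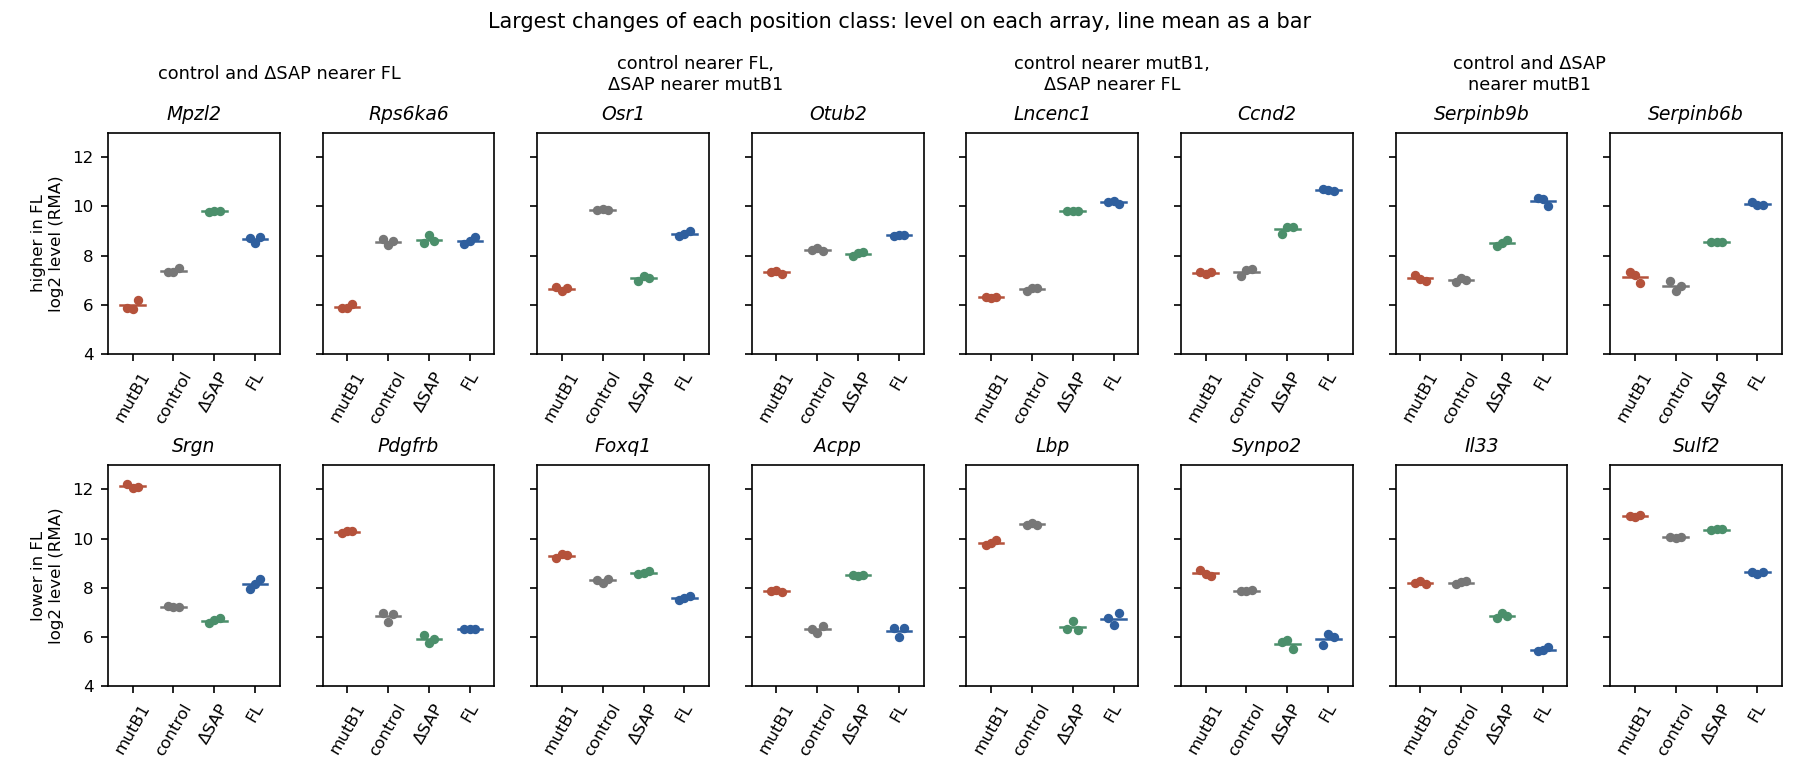
RMA log2 level (y axis) on each of the 12 arrays by line (x axis), with the line mean as a bar, for the 2 genes with the largest change in each of the 4 classes. The upper panels are higher in FL and the lower panels lower in FL; Srgn and Pdgfrb stand at 12.1 and 10.3 in mutB1 and under 8.5 elsewhere, whereas Lbp stands lower in both FL and ΔSAP than in control and mutB1.

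Over all changed probe sets, the place of each line was expressed as the share of the way from the mutB1 mean (0) to the FL mean (1). At the 338 higher probe sets, control lay nearer FL at 134 (39.6%), with a median share of 0.36, and ΔSAP at 255 (75.4%), with a median of 0.81. At the 218 lower ones, control lay nearer FL at 77 (35.3%), median 0.23, and ΔSAP at 156 (71.6%), median 0.76. ΔSAP went beyond FL at 120 of the higher and 57 of the lower probe sets, and control went beyond mutB1 at 71 and 46. The share is a description, because the FL and mutB1 means set both its ends. Many genes lay near its middle: 50 of the 431 changed genes had a control share between 0.4 and 0.6, and 63 had a ΔSAP share there. If a line counts as on the side of FL only where limma called it changed from mutB1 and not from FL, control did so at 95 higher and 40 lower probe sets and ΔSAP at 161 and 105.

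**Figure D2:**
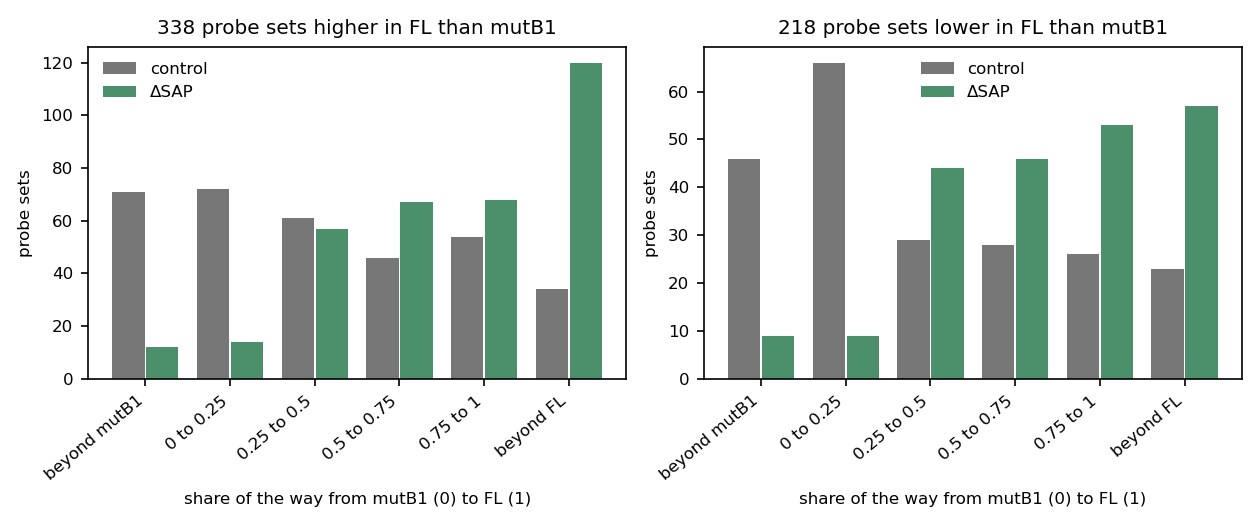
Number of changed probe sets (y axis) by the share of the way from mutB1 (0) to FL (1) at which the control mean (grey) and the ΔSAP mean (green) lay (x axis). At the 338 probe sets higher in FL the tallest ΔSAP bar is beyond FL (120), and at the 218 lower ones the tallest control bar is from 0 to 0.25 (66).

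ΔSAP against control shares no array with FL against mutB1, and so gives a separate reading of the same genes. Of all tested probe sets, 1.1% were called higher and 0.444% lower in ΔSAP than in control. These shares are not matched to the changed probe sets for level or spread. At the 338 probe sets higher in FL, ΔSAP was called higher than control at 91 (26.9%) and lower at 1 (0.296%). At the 218 lower ones, ΔSAP was called lower than control at 51 (23.4%). It was called higher at 11 of these (5.05%), which also exceeds the share over all tested probe sets. The median difference between ΔSAP and control was 0.56 at the 338 higher probe sets and -0.52 at the 218 lower ones, against -0.03 over all tested probe sets. The relation holds for the lines used here and says nothing of other clones. Across the 556 changed probe sets the 2 differences had a Pearson correlation of 0.61, which is partly fixed by the choice of members with large changes, and across all 30212 it was 0.44; probe sets are not independent replicates.

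The members differed in this second contrast. Mal2 (4.41 ± 0.07, limma adjusted p = 1.35e-10), the transmembrane channel-like gene Tmc4 (3.90) and Lncenc1 (3.16) were higher in ΔSAP than in control. Tmc4 read 9.70, 9.63 and 9.72 in FL and 8.45, 8.36 and 8.47 in mutB1, but 6.31 to 6.79 in control. Lbp fell by 4.18 in ΔSAP against control, Inmt by 2.59 and Tns1 by 2.14. Some genes set apart in mutB1 had small differences, such as Rps6ka6 (0.08, limma adjusted p = 0.651), Lama4 (0.16, adjusted p = 0.146) and Mapkapk3 (-0.05, adjusted p = 0.46), but Gpc4 (1.37) and Pdgfrb (-0.92) passed the adjusted p. Osr1 (-2.79) and Acpp (2.20) went against their direction in FL.

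**Figure D3:**
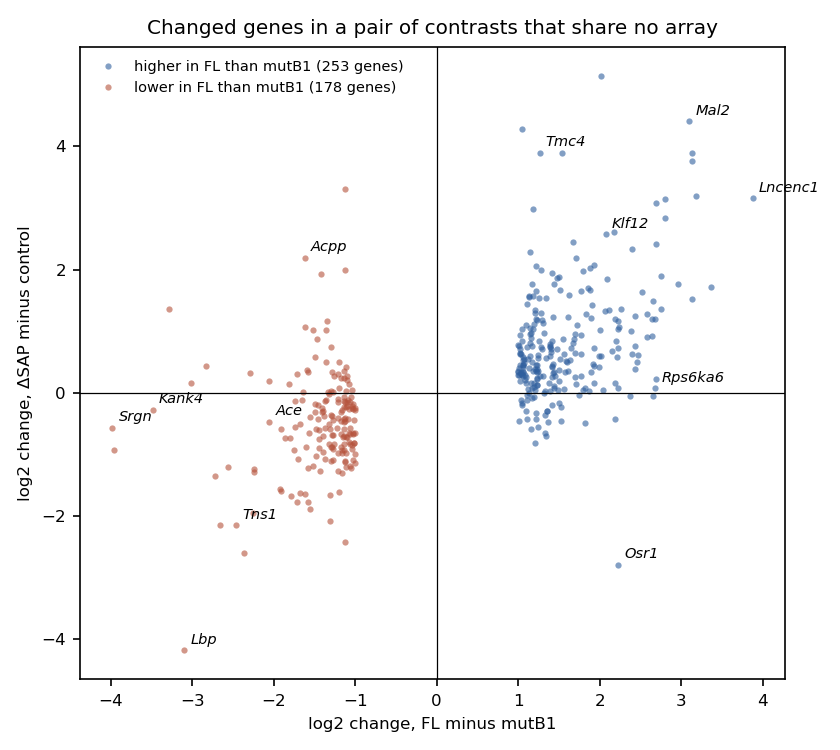
log2 difference between ΔSAP and control (y axis) against that between FL and mutB1 (x axis) for the 253 genes higher and 178 genes lower in FL, 1 point per gene. Most points right of 0 lie above the horizontal line and most left of 0 below it; Osr1 and Acpp lie on the opposite side, and Rps6ka6 and Kank4 near it.

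Gene families were then counted by gene name, 60 families with 3362 tested genes, which held 98 of the 431 changed genes; the other 333 belong to none of them. Counts below use the adjusted p of 0.01 (limma) unless 2-fold is stated, beside 13.2% higher and 13.9% lower over all genes tested. This background is not matched for level, and median levels differed between families, such as 8.98 for kinesins and 5.66 for protocadherins. Members named at less than 2-fold were chosen after their values were seen. In the Notch group of ligands, receptors and targets, 2 of 27 genes were higher and 7 lower. The receptor Notch1 read 8.99, 9.03 and 9.16 in FL and 10.62, 10.59 and 10.51 in mutB1, and fell by 1.51 ± 0.07 (limma adjusted p = 1.32e-07), and ΔSAP lay between at 9.76. The feedback inhibitor Nrarp fell by 1.38 ± 0.04 and the repressor Hes1, both transcribed in response to Notch, by 1.27 ± 0.05. The ligands split: Jag1 rose by 1.39 ± 0.04, from 9.22 to 9.25 in mutB1 to 10.62 to 10.64 in FL, and Dll4 was higher by 0.90, whereas Jag2 (-0.97) was lower.

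Of 13 Hedgehog pathway genes 4 were lower and 0 higher: Boc, the decoy receptor Hhip (-0.91), the transducer Smo (-0.38) and the inhibitor Sufu (-0.19). Of 56 Wnt ligands, receptors and inhibitors 3 were higher (5.36%, below the background of all levels) and 8 lower (14.3%, near it). The median level of this family was 6.37, and of 2066 genes with means from 6 to 7, 202 were higher and 112 lower. The ligands that rose were Wnt7a at 8.13, 7.96 and 8.13 in FL against 5.89, 5.23 and 5.16 in mutB1 (2.65 ± 0.19, limma adjusted p = 3.19e-06) and Wnt10a (1.21 ± 0.09), whereas the antagonist Sfrp1, described above, fell by 1.30 and the ligand Wnt7b (-0.78) was lower. In the semaphorin, plexin and neuropilin family of guidance cues and receptors 5 of 33 were higher and 10 lower. Sema5a rose by 2.00 ± 0.04, from 7.95 to 8.03 in mutB1 to 9.97 to 10.02 in FL, with control at 8.99 and ΔSAP at 9.59, whereas Sema6d (-1.41 ± 0.06) and the co-receptor Nrp1 (-1.17 ± 0.07) fell. Among 21 Eph receptors and ephrins, 4 were higher and 6 lower, and the ligand Efna2 fell by 1.61 ± 0.05.

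The protocadherins, a family of cadherin-like cell surface proteins, had 14 of 33 tested members lower (42.4%) and 2 higher, Pcdh1 and Pcdh18. All 14 lower members belong to the clustered beta group, whose genes are near copies in tandem, so their signals may be shared between probe sets. They all lie on chromosome 18, where many genes were higher than in control both in mutB1 and in FL, as given below with the other chromosomes. In the whole family 19 of the 33 were low in all lines. Only Pcdhb16 (-1.45 ± 0.08) and Pcdhb15 (-1.06 ± 0.06) reached 2-fold. Pcdhb16 read 6.83, 6.71 and 6.97 in FL, 8.21, 8.34 and 8.31 in mutB1, 7.88 to 8.09 in control and 7.29 to 7.43 in ΔSAP. The order of the lines was therefore mutB1, control, ΔSAP and FL, and no 2 lines overlapped.

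Several families act on the cytoskeleton. In the group of Kank proteins, tensins and ankyrins 6 of 13 were lower and 3 higher, with Kank4 and Tns1 at the low end and Ank2 and Ank3 (1.23 each) at the high end.

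Of 34 LIM and PDZ-LIM proteins 4 were higher and 10 lower. Lmcd1, a LIM protein with cysteine-rich domains, read 7.12, 7.33 and 7.27 in mutB1 and was low in the other lines, with FL at 5.88, and it fell by 1.36 ± 0.09 (limma adjusted p = 2.25e-06). Of 23 unconventional myosins, motors that carry cargo along actin, 6 were higher and 2 lower; Myo1d rose by 1.32 ± 0.07 and Myo5c was higher by 0.58. The microtubule motors of the kinesin family had 1 higher (0 after median centring) and 9 lower of 37, none at 2-fold, of which Kif21b (-0.62) was the furthest. Tetraspanins, which organise membrane domains, had 3 higher and 9 lower of 26, with Tspan12 up by 1.63 ± 0.13 and Tspan11 down (-1.22 ± 0.05).

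Among transcription factors, 8 of 25 Kruppel-like and Sp factors were higher (32%) and 3 lower (12%); beside Klf12, Klf5 was higher by 0.88 and Klf4 by 0.48. Of 88 Hox and related homeobox genes 0 were higher and 13 lower, the furthest Dlx1 (-0.78), and none reached 2-fold; after a further quantile normalization 1 was higher. Of the 43 forkhead factors 3 were higher and 7 lower, with Foxa1 up by 1.11 ± 0.07 and Foxq1 and Foxf2 down. The nuclear receptors had 7 higher and 7 lower of 36, but 3 higher and 8 lower after median centring, and Nr2f1 fell by 1.13 ± 0.06. The inhibitor of differentiation Id1 fell by 1.13 ± 0.04 and the T-box factor Eomes rose by 1.22 ± 0.06, in a mixed group of 29 with 6 in each direction.

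Among carriers, channels and secreted proteins, 68 of 355 solute carriers were higher (19.2%) and 37 lower (10.4%), but the median change was 0.01 and turned to -0.03 after median centring, when 50 were higher and 41 lower. Slc18b1, the mitochondrial carrier Slc25a48 (1.43 ± 0.07) and the organic anion carrier Slco1a5 (1.17 ± 0.11) rose, and the glucose transporter relative Slc2a6 (-1.16 ± 0.04) fell. The mechanosensitive channel Piezo2 fell by 1.39 ± 0.06 and the water channel Aqp1 by 1.26 ± 0.04, whereas Aqp5 rose by 1.24 ± 0.10. Of 12 annexins, calcium-dependent membrane binders, 6 were higher and 1 lower (3 higher after median centring); Anxa8 read 7.04, 7.09 and 7.23 in FL and was low, at 5.44 to 5.56, in mutB1 (1.61 ± 0.08, limma adjusted p = 3.67e-07). Only 2 of 17 kallikreins, secreted serine proteases, changed, and 15 were low in all lines. These were Klk10, at 9.55, 9.61 and 9.52 against 6.93, 6.85 and 6.99 (2.64 ± 0.08), and Klk8 (1.93 ± 0.06), and in both ΔSAP lay nearer FL.

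**Figure D4:**
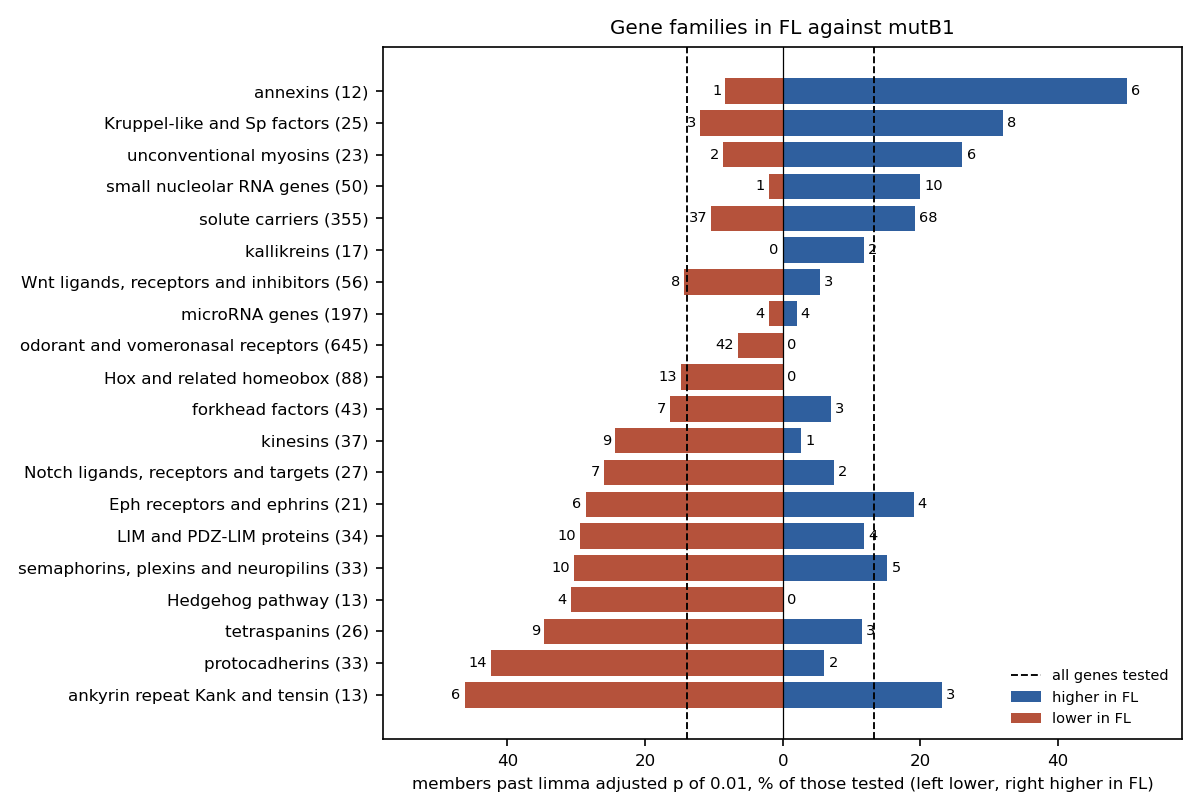
Percentage of tested members (x axis, left lower and right higher in FL) past a limma adjusted p of 0.01 for 20 of the 60 families (y axis, number tested in brackets), with member counts beside the bars and dashed lines at 13.9% lower and 13.2% higher for all genes tested. The lower bars of protocadherins (42.4%) and of the Kank, tensin and ankyrin group (46.2%) and the higher bar of annexins (50%) are the longest. The dashed lines are not matched for the level of a family.

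Small RNA genes had few changes. Of 197 tested microRNA genes, of which 177 matched the RefSeq table, 4 were higher and 4 lower (3 and 7 after median centring), and only Mir181b-2 reached 2-fold. These probe sets lie on the precursor genes and do not measure the mature strands. Mir181b-2 and its neighbour Mir181a-2 give mature microRNAs with the same seed, bases 2 to 8, shown here in capitals from RefSeq (GRCm38.p6) because both genes were lower in FL.
mmu-miR-181a-5p (chr2:38852741-38852763, plus strand): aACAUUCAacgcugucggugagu
mmu-miR-181b-5p (chr2:38853845-38853868, plus strand): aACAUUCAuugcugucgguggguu

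The Mir181b-2 probe set read 6.59, 6.29 and 6.34 in FL and 7.55, 7.57 and 7.75 in mutB1, and fell by 1.22 ± 0.15 (limma adjusted p = 0.000143), and Mir181a-2 was lower (-0.87 ± 0.10, limma adjusted p = 8.55e-05), with FL at 5.63 to 5.97 and mutB1 at 6.62 to 6.78. Control (6.73 to 7.21) and ΔSAP (6.99 to 7.45) lay between FL and mutB1 at Mir181b-2. Small nucleolar RNA genes, which guide modification of ribosomal RNA, were higher at 10 of 50 (20%) and lower at 1, but after median centring only 5 were higher. The share over all genes is not given for that setting. Snord14e rose by 1.05 ± 0.12. Its change was 0.998 after median centring and 0.951 without the first mutB1 array, both under 2-fold. Of 645 odorant and vomeronasal receptor genes, 42 were lower (73 after median centring) and 0 higher with a median change of -0.16, but 621 were low in all lines and none changed 2-fold. Among all genes with means from 4 to 5, 56 were lower and 19 higher of 2833; what lies behind these dim shifts was not tested.

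Some changes followed the chromosomes, a pattern that was noticed after the values were seen. Among the 12168 genes with a mean of at least 6 and a known chromosome, 19% were higher and 19.8% lower in FL against mutB1 (limma adjusted p of at most 0.01). On chromosome 12, 201 of 429 genes were higher (46.9%) and 27 lower, with a median change of 0.18, and on chromosome 3, 221 of 552 were higher (40%) and 58 lower. Chromosome 2 went the other way, with 75 of 965 higher and 390 lower (40.4%), as did chromosome 17, with 42 of 601 higher and 166 lower. The direction of each was the same after median centring and after a further quantile normalization. Median shifts were small beside the 2-fold limit. Of the 431 changed genes 336 lie off chromosomes 2, 3, 12 and 17, as do most of the genes tested. The changed genes were 12 higher and 27 lower on chromosome 2, and 6 higher and 7 lower on chromosome 17. On chromosome 12 there were 14 higher and 3 lower, and on chromosome 3, 18 higher and 8 lower. Among all genes tested 253 were changed higher and 178 lower.

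These shifts were set beside mutB1 against control, which shares the mutB1 arrays and where 13.1% of the same genes were higher and 16.5% lower. On chromosome 12, 286 of 429 genes were lower in mutB1 than in control (66.7%) and 5 higher, with a median of -0.34. In 7 successive blocks of 60 genes along it the medians ran from -0.23 to -0.42, all below 0. Chromosome 3 had 213 of 552 lower and 38 higher, and chromosome 18 had 117 of 302 higher and 8 lower, whereas in FL against mutB1 it had 55 higher and 74 lower. In FL against control, chromosome 18 had 127 higher and 31 lower, so its rise over control was shared by FL and mutB1. On chromosome 2, 237 of 965 genes were higher and 124 lower in mutB1 than in control. In FL against control it had 140 higher and 325 lower. On chromosome 17, 48 of 601 genes were higher and 105 lower in mutB1 than in control. In FL against control that chromosome had 57 higher and 223 lower, so it was not raised in mutB1. Osr1 and Otub2, a deubiquitinase that rose 2.82-fold, are on chromosome 12. Notch1, Nrarp, Jag1, Lbp, Dlx1 and both Mir181 genes are on chromosome 2, and the 14 lower protocadherins on chromosome 18. Of these, Jag1 rose in FL against mutB1, against the direction of its chromosome. Pcdhb16 was lower in FL than in control, whereas chromosome 18 had more genes higher than lower there. What lies behind these shifts was not tested.

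**Figure D5:**
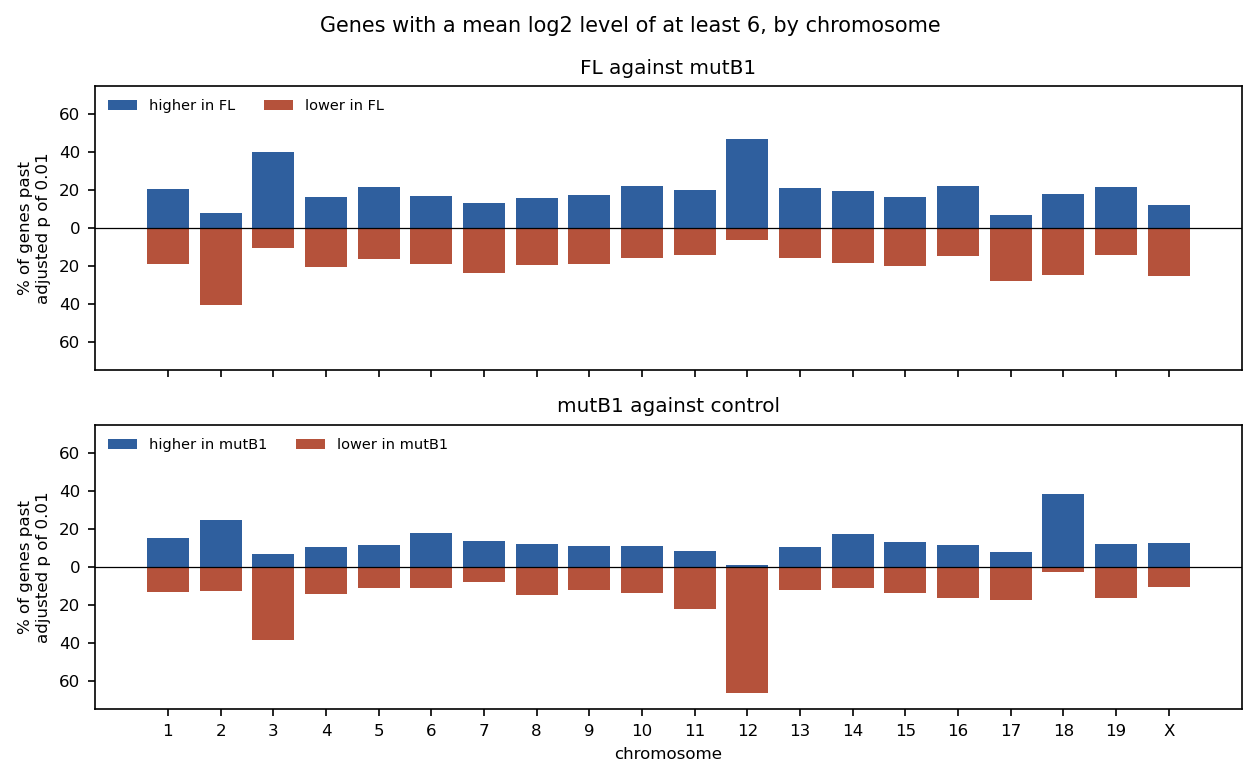
Percentage of genes past a limma adjusted p of 0.01 (y axis, higher above 0 and lower below 0) on each chromosome (x axis), among 12168 genes with a mean log2 level of at least 6, for FL against mutB1 (upper) and mutB1 against control (lower). Chromosome 12 stands out in both, with 46.9% of genes higher in FL than in mutB1 and 66.7% lower in mutB1 than in control.

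Some changed genes were also neighbours, and whether there were more of these than random placement would give was not tested. Runs of changed genes adjacent among those tested included Serpinb6b, Serpinb9 and Serpinb9b, the tight junction pairs Cldn3 with Cldn4 and Ocln with Marveld2, and Bcam with Cblc among the rises. Among the falls, Sulf2 lay beside the Rac exchange factor Prex1, the selectin Sele beside coagulation factor F5, and Tle2 beside Tle6. Where a changed gene had more than 1 named probe set, 13 of 15 had at least 1 other past the adjusted p in the same direction and 0 in the opposite direction. Finally, 82 of the changed probe sets have no gene symbol in the annotation used, 64 higher and 18 lower. The largest change of the whole comparison was among them, a probe set with means of 10.4 in FL, 6.02 in mutB1, 8.95 in control and 8.35 in ΔSAP (4.39 ± 0.08, limma adjusted p = 4.7e-10), and its identity was not analysed here.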

How the data were processed

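RNA from 12 cultures (100 ng each, per the labels' protocols) was hybridised to arrays. The authors deposited log2 values, normalized by RMA with the affy package of Bioconductor 2.4 in R 2.10.0 per the series design and the submitters' processing notes; neither states the probe set build or a scan batch. The 3 arrays per line limit the precision. Symbols came from a 2016 platform annotation: 21640 probe sets had 1 symbol, 1321 several and 11799 none. From the deposited log2 values, limma 3.58.1 (R 4.3.3; lmFit, eBayes) was fitted to all 12 arrays with 4 line means, and p-values were adjusted by Benjamini-Hochberg over 34760 probe sets; the code was tested on simulated data. Fold changes were computed here from these values. The brightest probe set stood for a gene. Named genes were the 24 largest rises and falls, up to 4 changed genes per family and position class, and checks of the constructs; others are marked in the text, and 1 family is not reported here. Genes, families and markers were chosen with earlier results of these data known. Alternatives covered scaling, the minimum mean, thresholds, the replicate block and single arrays left out. Replicate numbers did not pair the FL and mutB1 arrays (correlations of same-numbered deviations from -0.05 to 0.03). Some control and ΔSAP arrays were closer: control replicate 2 with ΔSAP replicate 3 (0.30), 3 with 2 (0.27) and 1 with 1 (0.18). Other pairs of these lines went down to -0.23. What links such arrays was not tested, and the replicate block, which goes by number, does not model it.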

Additional observations from a re-analysis of the deposited data

How the results depend on the processing

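The count of 556 changed probe sets moved by over 1.5 times in 1 setting only, a test against a 2-fold change itself (limma treat), which is stricter by construction: 212 passed, 126 higher and 86 lower. Among those 212, control lay nearer FL at 69 and 29, ΔSAP nearer FL at 112 and 66, ΔSAP was called above control at 29 of the higher and below it at 23 of the lower, and 37 family members passed, against 98. With calls in place of the nearer mean, control counted with FL at 40 of the lower and ΔSAP at 161 of the higher probe sets. The other settings gave between 499 (minimum mean of 6) and 603 (adjusted p of at most 0.05); median centring gave 304 higher and 256 lower. With the replicate block, a paired fit, 549 changed, 326 higher and 223 lower. Leaving out single arrays gave 522 to 581. Of 157 named genes 68 lost the call under treat and none reversed; 7, of which 6 are among those 68, have means under 6 and were not tested at that minimum. In the other settings no gene outside the 68 lost the call, and 8 of them lost it when an array was left out, namely Cst6, Cyp1b1, Pde8a, Rbp2, Sele, Snord14e, Ston1 and Tiam1. Genes near the low level have changes that may be understated.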
